A study of Mus musculus with 2 samples.

Results

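The miR-183 cluster of miRNAs was followed in Müller glia (MG), which span and support the whole neural retina, after deletion of Dicer1, the enzyme that cuts miRNA hairpins into mature miRNAs. The unstarred probes mmu-miR-183, mmu-miR-96 and mmu-miR-182 were taken by name, which made 3 members of the 566 mouse miRNA probes on the panel. The panel held no probe for the opposite (3p) arms. MG were sorted by FACS as tdTomato+ cells from retinas of adult Dicer-CKO mice (Rlbp1-CreER:tdTomato:Dicerf/f, 26 retinas pooled) and of adult wild-type mice (Rlbp1-CreER:tdTomato, 40 retinas pooled, although a protocol text of that sample gives 26). Mice of both groups received tamoxifen at 75 mg/kg between postnatal days 11 and 14, so the wild-type cells carry the same Cre and reporter and differ by the intact Dicer1 alleles. The Rlbp1 promoter that drives the Cre is also active in some cells of the retinal pigment epithelium, and the study describes the Dicer1 deletion as incomplete. There was 1 pooled library per group, so no difference below has a replicate check, no test was possible and no p-values are given.

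The 3 members are made from 1 primary transcript, a polycistron, from which separate hairpins are cut and then processed by Dicer. In the vertebrate retina the cluster is known as a photoreceptor cluster, and it is shared with other sensory cells such as the hair cells of the inner ear, where changes in the seed of miR-96 cause hearing loss in mice and humans. In photoreceptors the cluster is known to follow light, with high transcription and fast decay of the mature miRNAs, and miR-182 and miR-183 have been tied to the upkeep of cone outer segments. MG are not known as a main site of its expression.

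The mature sequences are shown because the probes read the mature miRNA and because the members resemble each other. They are given 5′ to 3′ from RefSeq on GRCm38.p6, with the seed (bases 2 to 8) in capitals.
miR-183: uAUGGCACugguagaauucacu
miR-96: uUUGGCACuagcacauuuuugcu
miR-182: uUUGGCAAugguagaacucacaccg
All 3 members matched a RefSeq entry, as the 5p arms. The seeds are near copies but no pair of them is the same. Counted from the 5′ end, miR-183 and miR-96 differ in the first 8 bases by A2U alone, miR-96 and miR-182 by C8A alone, and miR-183 and miR-182 by A2U and C8A. Bases 2 to 7 are therefore shared by miR-96 and miR-182, and no other probe of the panel matched by name to a RefSeq miRNA with these letters. Beyond the seed the likeness changes partner. miR-182 has the same base as miR-183 at 18 of the 22 positions compared, whereas miR-96 has the same base as miR-183 at 13 of 22 and as miR-182 at 12 of 23. miR-183 and miR-182 are thus the pair most alike over their length.

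The 3 hairpins lie on the minus strand of chromosome 6 of GRCm38.p6, inside the long noncoding RNA gene Mirc35hg (30158640 to 30174125). Mir183 (30169668 to 30169737) comes first in the direction of transcription and is followed after 116 bases by Mir96 (30169446 to 30169551). Mir182 (30165918 to 30165992) lies 3453 bases further on. The 3 hairpins together span 3820 bases.

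miRNAs were counted with the NanoString nCounter, in which tags are ligated to mature miRNAs, hybridized to barcoded probes and counted without amplification, which makes each raw count a tally of barcodes. The barcodes on mouse miRNA probes differed widely, with 52644 in Dicer-CKO and 695390 in wild-type. The 6 positive controls did not share this difference, with raw ratios of Dicer-CKO to wild-type from 1.02 to 1.39. Detection required a raw count over 53.2 in Dicer-CKO and over 71.7 in wild-type, which is 2 SD above the average of the 8 negative controls. Normalized counts are raw counts minus the mean of the negative controls, scaled by the 6 positive controls and then by the 4 housekeeping mRNAs (Actb, B2m, Gapdh and Rpl19). On that scale the detection limit was 90.0 in Dicer-CKO and 23.6 in wild-type. Dicer1 is not on the panel, and neither are mRNAs that mark MG or photoreceptors, so these counts hold no independent check of the sorted cell type. The paper assessed the purity of its sorted tdTomato+ cells by a post-sort and found it high, but not complete, in both genotypes. All 6 miRNAs of a glial list (miR-9, miR-99a, miR-125b-5p, miR-135a, miR-181a and miR-204) were detected in both libraries. The list was chosen with earlier results of these data known and holds the most abundant miRNAs of both libraries, so its detection does not test the cell type.

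miR-183 and miR-96 had higher raw counts in the Dicer-CKO library than in the wild-type library, although that library held far fewer miRNA barcodes in all. miR-183 had a raw count of 430 in Dicer-CKO (exact 95% Poisson interval 390.3 to 472.6) and of 353 in wild-type (317.1 to 391.8). miR-96 had a raw count of 797 in Dicer-CKO (742.6 to 854.3) and of 285 in wild-type (252.9 to 320.1). Each of these counts lay above its detection limit, at 8.08 times the limit in Dicer-CKO and 4.93 times in wild-type for miR-183, and at 15.0 times in Dicer-CKO and 3.98 times in wild-type for miR-96. These intervals, and those below unless said otherwise, cover counting error only. A higher raw count in Dicer-CKO was rare, as 8 of the 74 mouse miRNAs measured in both libraries had one, and miR-183 and miR-96 were among the 8.

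The ratio of raw counts, Dicer-CKO over wild-type, was 1.22 for miR-183 (1.06 to 1.40) and 2.80 for miR-96 (2.44 to 3.21). The 6 positive controls, which are added in equal amounts to every reaction, gave raw ratios from 1.02 (POS_E) to 1.39 (POS_B). The ratio of miR-183 lay within that range, and that of miR-96 lay above it. The raw ratios of the 4 housekeeping mRNAs ran from 0.220 (Gapdh) to 0.357 (B2m), below both miRNAs.

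miR-182 was not detected in either library. Its raw count was 44 in Dicer-CKO (32.0 to 59.1) and 40 in wild-type (28.6 to 54.5), under the detection limit of each. In wild-type 4 of the 8 negative controls and 18 of the 33 probes for viral miRNAs, which mouse cells should not contain, read higher than miR-182, so its count sat in the middle of the background. In Dicer-CKO 1 negative control (NEG_C, 59) and 0 of the 33 viral probes read higher, so it stood at the upper edge of the background. No fold is given for miR-182, because both values lie under the limit. With these limits a normalized count of up to 90.0 in Dicer-CKO and 23.6 in wild-type would have gone unseen.

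**Figure D1:**
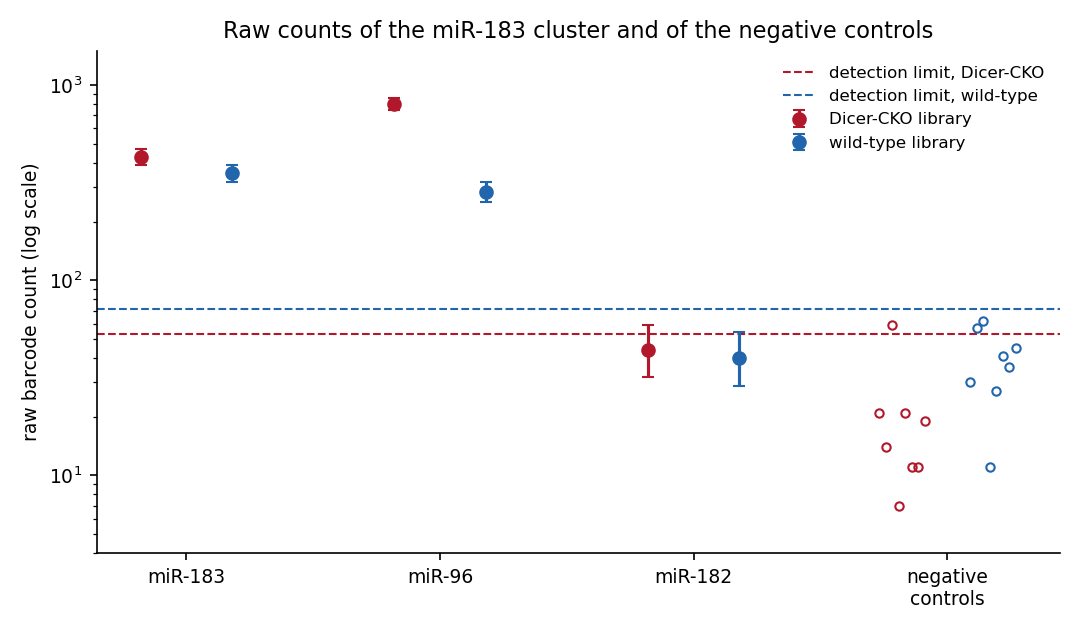
Raw barcode counts (log scale) of miR-183, miR-96 and miR-182 in the Dicer-CKO library (red, left of each pair) and the wild-type library (blue), with exact 95% Poisson intervals; open circles are the 8 negative controls of each library and dashed lines the detection limits. miR-183 and miR-96 stand well above both limits. miR-182 lies under them, among the negative controls in wild-type (40) and above all but 1 of them in Dicer-CKO (44).

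The rank of the members among the 566 mouse probes moved with genotype. miR-96 was the 14th highest mouse miRNA in Dicer-CKO and the 68th in wild-type, and miR-183 was the 21st in Dicer-CKO and the 62nd in wild-type. miR-182 ranked 85th in Dicer-CKO, where 77 mouse miRNAs were detected, and 320th in wild-type, where 171 were detected. As a share of all mouse miRNA barcodes, miR-96 made up 1.51% in Dicer-CKO (exact 95% binomial interval 1.41 to 1.62%) and 0.0410% in wild-type (0.0364 to 0.0460%). miR-183 made up 0.817% in Dicer-CKO (0.742 to 0.897%) and 0.0508% in wild-type (0.0456 to 0.0563%). The order of the pair was thus turned, with miR-96 the higher of the pair in Dicer-CKO and miR-183 in wild-type. These shares are of a total that is itself smaller in Dicer-CKO.

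On the housekeeping scale miR-183 had a normalized count of 1122 in Dicer-CKO (1014 to 1239) and of 225.0 in wild-type (199.4 to 252.8), 4.99-fold higher in Dicer-CKO (4.27 to 5.83). miR-96 had a normalized count of 2128 in Dicer-CKO (1979 to 2285) and of 176.4 in wild-type (153.4 to 201.5), 12.1-fold higher (10.4 to 14.1). The call of higher or lower needed a difference of 2-fold or more and an interval without equality in it. By that rule miR-183 and miR-96 were called higher and miR-182 was not called. Over all 174 mouse miRNAs detected in either library 12.1% were called higher and 29.9% lower, and over the 74 measured in both 24.3% were called higher and 55.4% lower. The unlike detection limits shape both shares. A miRNA detected only in wild-type could not be called higher. A miRNA with a wild-type level under 90.0, the limit in Dicer-CKO, could be measured in both only if higher in Dicer-CKO. The median log2 ratio of these 74 was -1.12, against 2.32 for miR-183 and 3.59 for miR-96. With the spread of the negative controls added to the counting error, the intervals were 3.99 to 6.30 for miR-183 and 9.69 to 15.6 for miR-96.

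The size of both folds follows the scale, because the housekeeping genes raise the Dicer-CKO library against wild-type by a factor 5.43 times that of the positive controls. With positive controls only, miR-183 stood at 0.919 of wild-type (0.787 to 1.07), within counting error of equality, and with the ligation controls at 0.953 (0.816 to 1.11). miR-96 remained above wild-type with both, at 2.22-fold (1.91 to 2.60) and 2.30-fold (1.98 to 2.70). Scaled to the sum of the detected miRNAs, miR-183 was 20.8-fold and miR-96 50.4-fold higher in Dicer-CKO. The direction for miR-183 therefore depends on the scale, and that for miR-96 was the same under every scale tried. Which scale holds for these cells was not tested, and fewer cells that make a miRNA cannot be told apart from less of it per cell.

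**Figure D2:**
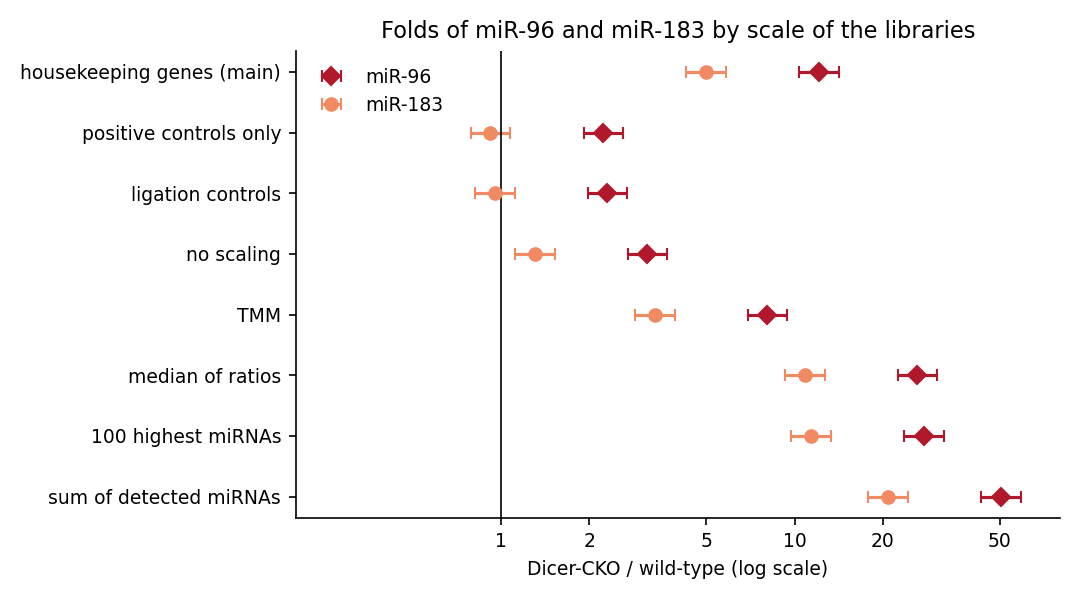
Ratio of Dicer-CKO to wild-type (log axis) for miR-96 (diamonds) and miR-183 (circles) under 8 ways to scale the libraries, with 95% counting intervals; the line marks equality. miR-96 lies above 1 throughout, from 2.22 to 50.4, whereas miR-183 touches 1 on the positive and ligation controls, and the distance between them is the same in each row.

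A comparison of the members with each other needs no scale, because the scale of a library cancels. After background subtraction miR-96 stood at 1.90 times miR-183 in Dicer-CKO (1.68 to 2.15) and at 0.784 times miR-183 in wild-type (0.653 to 0.938). The ratio of miR-96 to miR-183 was hence 2.42 times as high in Dicer-CKO as in wild-type (1.95 to 3.01). With the spread of the negative controls added, the interval was 1.76 to 3.40, and it still left out equality. The intervals of the libraries do not meet, and they lie on opposite sides of 1. The level of a probe also depends on how well it binds, so the ratios within a library are not ratios of molecules, but a constant binding factor cancels between the libraries. Without replicates it is not known how far such a ratio varies between pools of the same genotype.

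miR-182 could be set against its neighbours only as a bound, with its level taken at the detection limit or at its own upper Poisson limit, whichever was higher. In Dicer-CKO, where the upper Poisson limit was the higher of these, it stood at no more than 4.98% of miR-96 and 9.45% of miR-183. In wild-type, where the detection limit was the higher, it stood at no more than 13.4% of miR-96 and 10.5% of miR-183. The counting error of miR-96 and miR-183 is not in these bounds. The miR-182 probe read 44 in the library where miR-183, the member with the most similar sequence, read 430. Whether either probe reads the other member was not tested.

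Relative to each of the 6 glial miRNAs, miR-96 and miR-183 stood higher in Dicer-CKO than in wild-type, beyond counting error. The ratio to the glial miRNA was 31.8 (miR-135a) to 113 (miR-204) times as high for miR-96, and 13.2 (miR-135a) to 46.8 (miR-204) times as high for miR-183. The example of miR-204 is thus the one with the greatest difference. miR-204, the most abundant miRNA of these glia, had a raw count of 6906 in Dicer-CKO and 247414 in wild-type. miR-96 was 11.3% of miR-204 in Dicer-CKO (10.5 to 12.2%) and 0.0996% in wild-type (0.0866 to 0.114%). miR-183 was 5.95% of miR-204 in Dicer-CKO (5.36 to 6.59%) and 0.127% in wild-type (0.113 to 0.143%). All 6 miRNAs of the glial list were called lower on the housekeeping scale, with a median log2 ratio of -2.57 (range -3.23 to -1.40), so these ratios hold the lower level of the glial miRNAs as well as the level of the members.

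Some miRNAs of other cell types were also called higher, with 12.1% of the 174 detected miRNAs and 24.3% of the 74 measured ones called so in all. Of 7 miRNAs on the list for retinal neurons, 3 were measured in both libraries (miR-124, miR-129-3p and miR-132) and 3 were called higher, miR-137 was detected only in wild-type, and 3 were in neither library (miR-129-5p, miR-138 and miR-128). The summed normalized count of those detected in each library was 8304 in Dicer-CKO and 1137 in wild-type, where it includes miR-137 (28.19). Most of each sum came from miR-124, the defining miRNA of neurons. Of 6 immune cell miRNAs 4 were called higher (miR-146a, miR-150 and both arms of miR-142) and 2 were in neither library (miR-223 and miR-155), with sums of 1325 in Dicer-CKO and 296.7 in wild-type. The vascular miR-126-3p (785.3 in Dicer-CKO and 121.2 in wild-type) and the epithelial miR-200b (234.6 in Dicer-CKO and 39.6 in wild-type) were called higher, while miR-126-5p and the other 4 epithelial miRNAs (miR-200a, miR-200c, miR-141 and miR-429) were in neither. Their part in the values of miR-96 and miR-183 was not tested. All of these calls are on the housekeeping scale. The unlike detection limits also shape them. A miRNA with a wild-type level under 90.0, the limit in Dicer-CKO, could be measured in both libraries only if it was higher in Dicer-CKO. In wild-type this held for miR-132 (73.28), miR-142-3p (24.61), miR-146a (61.83), miR-150 (76.15) and miR-200b (39.64), so their direction was fixed by the limits.

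Set against the 9 miRNAs of these lists that were measured in both libraries, which again needs no scale, miR-96 was higher in Dicer-CKO beyond counting error against 8, and the direction for miR-183 changed with the miRNA it was set against. Against miR-124, the most abundant of the 9 (raw counts of 2759 in Dicer-CKO and 1211 in wild-type), the members lay on opposite sides of equality. miR-96 was 28.4% of miR-124 in Dicer-CKO (26.1 to 30.7%) and 21.0% in wild-type (18.1 to 24.3%), which is 1.35 times as high (1.14 to 1.60). miR-183 was 15.0% of miR-124 in Dicer-CKO (13.4 to 16.6%) and 26.8% in wild-type (23.4 to 30.5%), which is 0.558 times as high (0.471 to 0.662). miR-183 was also lower against the endothelial miR-126-3p, at 0.770 times (0.592 to 0.997). Against the other 2 neuronal miRNAs it was higher, at 1.54 times for miR-129-3p (1.21 to 1.97) and 2.20 times for miR-132 (1.47 to 3.35). No single direction of miR-183 relative to neuronal miRNAs can therefore be given.

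Among the immune cell miRNAs, miR-183 was higher against miR-146a, at 1.80 times (1.18 to 2.76). It did not differ beyond counting error against miR-142-3p (0.643, 0.324 to 1.11), miR-142-5p (1.26, 0.963 to 1.65) or miR-150 (0.879, 0.633 to 1.21), nor against the epithelial miR-200b (0.843, 0.520 to 1.31). miR-183 thus stood higher against 3 of the 9, lower against 2 and within counting error against 4. Those of the 9 with a wild-type level under the Dicer-CKO detection limit were measured only because they were higher in Dicer-CKO, which bears on the ratios against them. miR-96 stood 1.35 (miR-124) to 5.32 (miR-132) times as high over the 9. The 1 interval of miR-96 that held equality was that against miR-142-3p (1.56, 0.785 to 2.69), which had raw counts of only 90 in Dicer-CKO and 73 in wild-type.

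**Figure D3:**
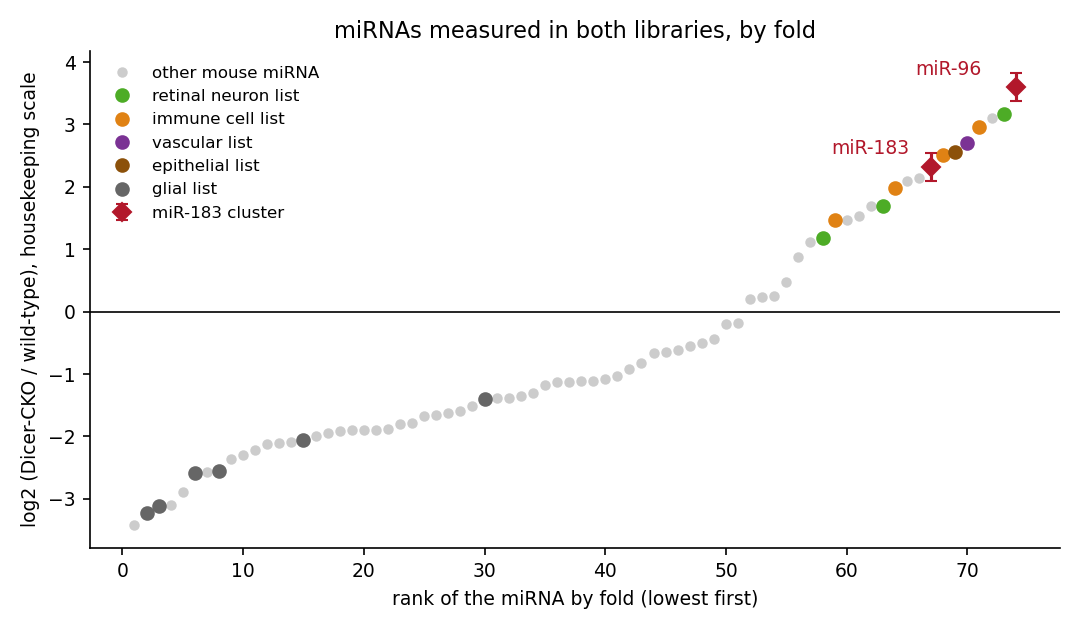
Log2 ratio of Dicer-CKO to wild-type on the housekeeping scale for the 74 mouse miRNAs measured in both libraries, ranked from lowest to highest, with lists of miRNAs of other cell types in colour. miR-96 has the highest ratio (3.59) and miR-183 the 8th highest (2.32), with 95% counting intervals drawn for both, and neuronal, immune, vascular and epithelial miRNAs share the right end while the glial list lies below 0. A miRNA with a wild-type level under the Dicer-CKO detection limit could appear here only if higher in Dicer-CKO.

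miR-96 had the highest fold of the 74 miRNAs measured in both libraries, and miR-183 the 8th highest. A higher ratio was found outside those 74, as miR-376a, named after its values were seen, was detected in Dicer-CKO only (raw counts of 238 in Dicer-CKO and 46 in wild-type) and was at least 25.2-fold higher (21.8 to 28.95). The order among the 74 is the same on every scale that multiplies a library by 1 factor. By distance in log2 ratio over these 2 libraries, the nearest to miR-96 were miR-124 (0.43 apart, 8.94-fold, 8.34 to 9.59), miR-466g (0.50 apart) and miR-142-3p (0.64 apart). The interval of miR-124 does not reach that of miR-96, whereas those of miR-466g (5.59 to 14.2) and miR-142-3p (4.59 to 15.1), both measured with few counts, overlap it. The nearest to miR-183 were miR-539 (0.17 apart, 4.42-fold), miR-150 (0.19 apart, 5.67-fold) and miR-1196 (0.22 apart, 4.29-fold), and the intervals of all 3 overlap that of miR-183. With 2 libraries, such nearness rests on a single ratio. It is also partly set by the detection limits. In wild-type miR-539 (28.9), miR-1196 (25.32), miR-150 (76.15), miR-466g (33.2) and miR-142-3p (24.61) lay under 90.0, the limit in Dicer-CKO. They could be among the 74 only if higher in Dicer-CKO, whereas miR-124 (839.2) was not bound in this way.

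miR-211, which like the cluster is known to follow light in the mouse retina, is related to miR-204. On the housekeeping scale miR-211 was 2.88-fold higher in Dicer-CKO (2.39 to 3.47). Its raw counts went the other way, with 239 in Dicer-CKO and 329 in wild-type, so its direction depends on the scale. miR-204, known to follow light too, had 0.107 of its wild-type level in Dicer-CKO on the housekeeping scale (0.104 to 0.109).

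Members of a polycistron share a transcript but need not share a level, and the distance of miR-96 and miR-183 was compared with that of other clusters. Of 21 listed mouse clusters 11 had at least 2 members measured in both libraries, this one included. Within the miR-183 cluster the log2 ratios lay 1.28 apart. In the other 10 clusters the distance between the lowest and the highest member ran from 0.04 (miR-29c and miR-29b) to 1.73 (miR-99a and let-7c), with a median of 1.08, and 4 of the 10 were wider than the miR-183 cluster. Wider distances were thus also seen within other listed clusters of these libraries. The 10 include miR-142, which is 1 hairpin and not a polycistron. Its 2 arms were both measured and both higher in Dicer-CKO on the housekeeping scale, at a distance of 0.97. miR-29b and miR-16 each enter 2 of the 10, so the distances are not all separate comparisons. Some listed miRNAs, such as miR-29b, miR-16, miR-30c, miR-24 and let-7c, are made from more than 1 gene and their probes cannot tell the copies apart, whereas each member of the miR-183 cluster matched a single mouse gene in RefSeq. Of the 4 wider clusters, those with let-7c, miR-30c and miR-29b each hold a miRNA made from more than 1 gene. Their distances may therefore include copies made outside the cluster. The remaining wider pair, miR-30d and miR-30b (1.72 apart), holds none of the miRNAs named for this. Distances between members do not depend on the scale.

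**Figure D4:**
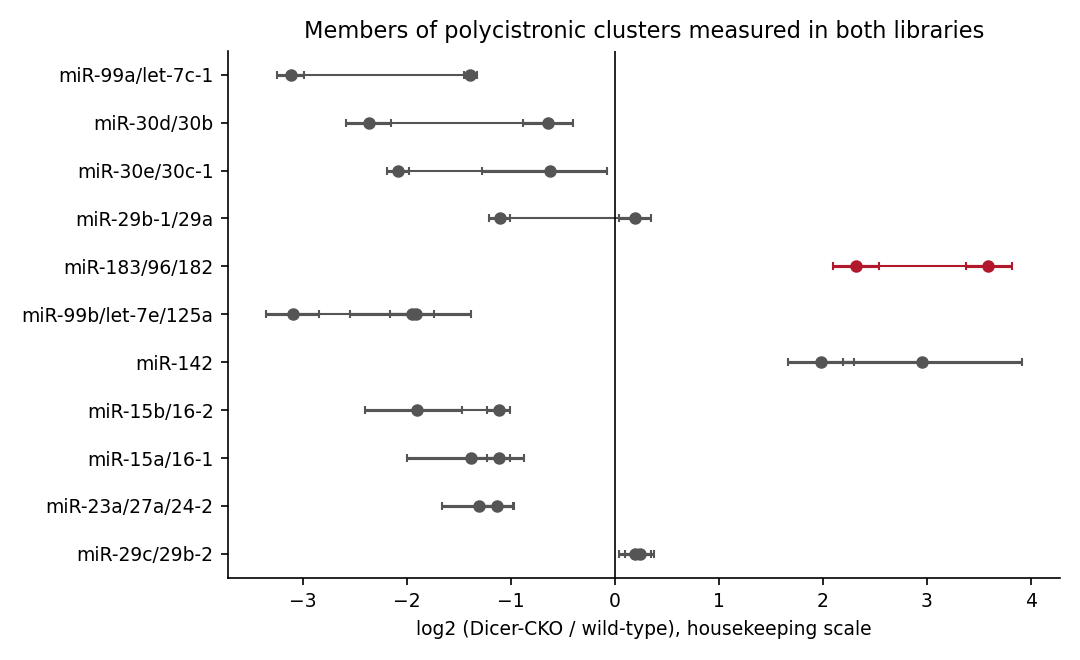
Log2 ratio of Dicer-CKO to wild-type on the housekeeping scale for members of polycistronic clusters, and for the arms of the miR-142 hairpin, measured in both libraries (points, with 95% counting intervals). Clusters are sorted by the distance between their lowest and highest member. The miR-183 cluster (red) spans 1.28, from miR-183 at 2.32 to miR-96 at 3.59, with miR-99a/let-7c-1, miR-30d/30b, miR-30e/30c-1 and miR-29b-1/29a wider.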

How the data were processed

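For each library the authors deposited the raw barcode counts of all probes. They also deposited normalized values, a score rounded to whole numbers that the paper's methods ascribe to nSolver with 6 positive controls, 8 negative controls and 4 housekeeping genes. How the background was treated is not given in the sources used here. The main values were computed anew from the deposited raw counts, with Python 3.11.15, scipy 1.17.1 and, for TMM only, edgeR 4.0.16. Probes were matched between the files by accession, since 9 were spelled differently. Background-subtracted counts were scaled by geometric means of the controls. Intervals combine the exact Poisson limits of the background-subtracted counts of both libraries on the log scale (MOVER) and so are wider near background than those of raw ratios. Total counts over all probes were 139812 in Dicer-CKO and 769736 in wild-type.

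The text names the members, the controls, panel miRNAs with a shared seed, the 3 miRNAs nearest in log2 ratio to each measured member, and miRNAs of fixed lists of cell types and of 21 clusters. Members and lists were chosen with earlier results of these data known. The folds, intervals and calls were tested on simulated data, only for miRNAs well above background in both libraries. The detection limit, the bounds and counts near background were not scored. Intervals were judged after a scaling error shared by all miRNAs was taken out. The alternatives tried are other backgrounds, scales, detection limits, intervals, size rules and the deposited scores.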

Additional observations from a re-analysis of the deposited data

How the results depend on the processing

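The ratio of miR-96 to miR-183 (2.42 times as high in Dicer-CKO as in wild-type) ran from 2.30 to 2.60 over its 10 alternatives, each called. The fold of miR-96 was called higher in all 22 of its alternatives and that of miR-183 in 19 of 22. miR-183 was not called without scaling, with positive controls only or with ligation controls. The other detection limits and the wider interval leave the value of these folds and of the ratio as it is. These counts of alternatives therefore include settings that could not move the values. Leaving out a housekeeping gene, arithmetic means and the deposited scores kept both folds within the intervals of the report.

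The folds, Dicer-CKO over wild-type, moved with the scale. miR-183 stood at 0.919 with positive controls only and at 0.953 with ligation controls, both in the other direction and within counting error, at 1.30 without scaling, 3.33 with TMM, 10.8 with median of ratios, 11.4 with the 100 highest miRNAs and 20.8 with the sum of detected miRNAs. miR-96 stood at 2.22, 2.30, 3.15, 8.07, 26.2, 27.5 and 50.4 on these scales in that order. Without background subtraction miR-96 was at 10.2. Subtracting the detection limit in place of the mean of the negative controls gave 6.03 for miR-183 and 15.7 for miR-96, and subtracting the highest of them 6.09 and 15.8.

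Of the mouse miRNAs, 21 were called higher and 52 lower. With positive controls only 2 were called higher and 137 lower, scaled to the sum of detected miRNAs 37 higher and 5 lower, and at a size rule of 4-fold 13 higher and 19 lower. With the spread of the negative controls in the interval 13 were called higher.

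The call of miR-182 turned on the detection limit. It had no fold under the alternatives set with the design, except without a detection limit. There, normalized counts of 64.7 in Dicer-CKO and 0.984 in wild-type give a ratio of 65.8, called higher. Its lower limit is 5.16 and it has no upper limit, as the wild-type count is at background. Whether miR-182 passes the detection limit in Dicer-CKO is decided by a single negative control, NEG_C. Without it, an alternative chosen after seeing the data, miR-182 was detected in Dicer-CKO only, at least 3.71-fold higher (2.18 to 5.63), and 36 miRNAs were called higher. With the limit set from the viral probes, also chosen after seeing the data, it was detected in Dicer-CKO only and at least 1.93-fold higher, within counting error of equality (0.949 to 3.17). No paired analysis was possible because each group had 1 library.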
